A study of Danio rerio with 40 samples.

Results

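Thrombospondins are large secreted glycoproteins of the extracellular matrix, encoded in zebrafish by paralogous gene pairs. The 8 genes thbs1a, thbs1b, thbs2a, thbs2b, thbs3a, thbs3b, thbs4a and thbs4b were followed by exact symbol through the authors' comparisons of wh5 with wild-type (WT) fish in brain (19300 genes) and eye (19429 genes). Of these, 7 genes had a row in each table. The gene thbs1a had a row in neither table and was not analysed here. The family was selected on the brain fold change of thbs2a, which was lower in wh5, so every brain fold change of a family member below is a description, and tests on members are given for the eye comparison only.

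The line wh5 carries a knockout of cyp1b1, which encodes a cytochrome P450 enzyme. Whole eyes and whole brains were dissected from adult fish, WT or wh5, female or male, and polyadenylated RNA was sequenced. The 40 samples make up 8 groups of 5, that is, 10 WT and 10 wh5 samples per organ. The labels do not say whether each sample came from a separate fish, or whether eye and brain came from the same fish, so standard errors (SE) and p-values measure the spread between these samples only. For all 40 samples the organ in the title differs from the organ in the source field, and organs were read from the titles. The deposited base means, which average normalised counts over the samples of a comparison, follow the organs in the table names. The authors' deposited tables give rhodopsin (rho) 632710 in eye and 1359 in brain. These pooled values cannot show which samples entered which comparison, so they do not settle titles against source fields. No value of a single sample was among the data used here, so the spread between samples is seen only through the authors' SE, the depth of each library is unknown, and males and females could not be set apart. The cyp1b1 transcript itself was not called lower in wh5 in either organ, and in eye it was called higher. The authors' deposited tables list it at a log2 fold change of -0.17 (SE 0.14, DESeq2 adjusted p = 0.818) in brain and 0.54 (SE 0.14, DESeq2 adjusted p = 0.016) in eye. The transcript level therefore does not check the genotype labels, and the direction of each comparison is read from the table names.

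Vertebrate thrombospondins fall into subgroups by assembly. The products of thbs1 and thbs2 genes form trimers and carry type 1 repeats, through which mammalian thrombospondin-1 binds the scavenger receptor CD36 and latent TGF-beta and restrains the growth of blood vessels. The products of thbs3 and thbs4 genes form pentamers that lack type 1 repeats and are best known from cartilage, tendon and muscle attachments. In the mammalian brain, astrocytes secrete thrombospondins that promote the formation of synapses through an alpha2delta subunit of calcium channels, and in the eye they are known from the trabecular meshwork, where they accompany matrix turnover.

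Among the trimeric members, thbs2a stood lowest in wh5 brain, and the other 6 measured members had fold changes whose 95% intervals included no change. Thbs2a encodes thrombospondin 2a; in mice the thrombospondin-2 protein takes part in collagen fibril assembly and in limiting vessel density. The authors' deposited table for brain gives thbs2a a base mean of 50.5 and a log2 fold change of -1.22 (SE 0.21), the value that led to the choice of this family. With 10 samples per genotype and the fold taken as the ratio of group means, these values imply a mean normalised count of 70.7 in WT and 30.3 in wh5 brain. The fold was 0.428 of WT, with a 95% interval of 0.322 to 0.569. In whole organs, fewer cells that make a transcript and less transcript per cell cannot be told apart. The SE of thbs2a in brain was 0.895 times the median SE of the 806 genes with a base mean within a factor of 1.2.

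In the eye, thbs2a was also estimated lower in wh5, but the difference was smaller and did not pass the test. The authors' deposited table for eye gives a base mean of 543 and a log2 fold change of -0.37 (SE 0.19, p = 0.0547 before and 0.363 after adjustment by DESeq2). The implied means were 612 in WT and 475 in wh5 eye, and the 95% interval of the log2 fold change ran from -0.74 to 0.01. At this SE a call in eye would have needed an absolute log2 fold change of 0.64. The log2 fold change was lower in brain than in eye by a difference of -0.86 (SE 0.28), which is given without a test because the brain value chose the gene.

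The paralogue thbs2b and the other measured trimeric gene, thbs1b, had estimates nearer to 0. For thbs2b, the authors' deposited tables give log2 fold changes of -0.12 (SE 0.26) in brain and -0.02 (SE 0.15) in eye. The implied means of thbs2b were 54.5 in WT and 50.2 in wh5 brain, and 1071 in WT and 1054 in wh5 eye. In the eye the 95% interval of its fold was 0.803 to 1.21. For thbs1b, whose mammalian counterpart activates latent TGF-beta, the authors' deposited tables give 0.13 (SE 0.17) in brain and 0.16 (SE 0.14) in eye. Its implied means were 325 in WT and 354 in wh5 brain, and 6908 in WT and 7725 in wh5 eye. How reads that could come from either copy of a pair were counted is not stated in the sources used here.

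**Figure D1:**
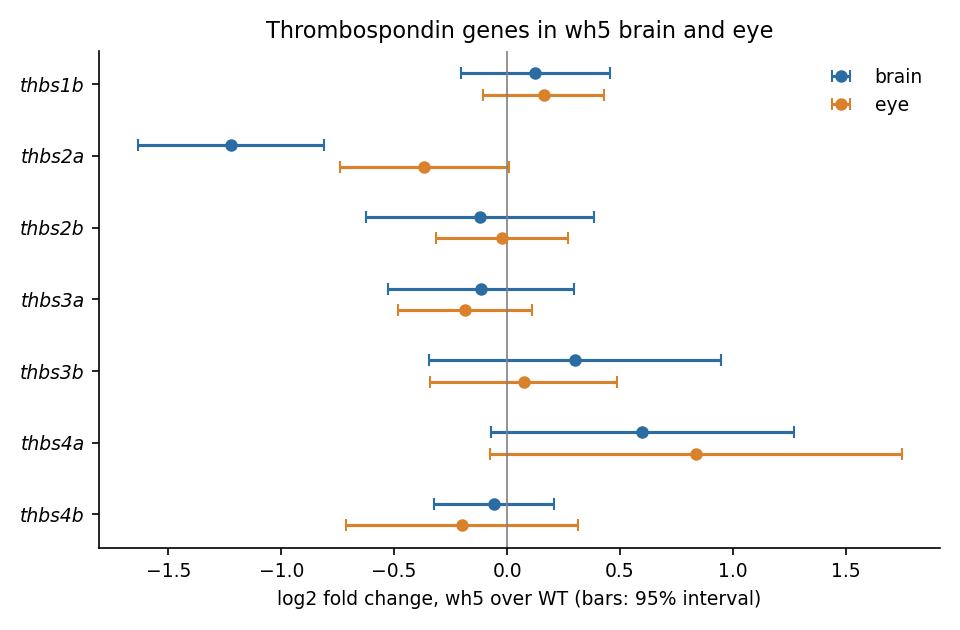
Log2 fold change of wh5 over WT for the 7 measured thrombospondin genes in brain and eye, with 95% intervals from the authors' SE as bars. The brain interval of thbs2a ends at -0.81, and all other intervals cross 0, that of thbs2a in eye at its upper end of 0.01.

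Among the pentameric members, the genes of the thbs4 pair had estimates of opposite sign, as did those of the thbs3 pair, and all of their intervals included no change. The estimates of thbs4a were the least precise of the family. Thbs4b is required at muscle attachment sites of zebrafish, and the role of its paralogue thbs4a is less well described. The authors' deposited tables give thbs4a log2 fold changes of 0.60 (SE 0.34) in brain and 0.84 (SE 0.46) in eye, where the adjusted p of the authors' DESeq2 test was 0.403. The implied means of thbs4a were 148 in WT and 225 in wh5 brain, and 406 in WT and 724 in wh5 eye. Its fold in eye was 1.79, with a 95% interval of 0.950 to 3.36, which leaves room for no change and for a rise of more than 3 times alike. The SE of thbs4a was 4.15 times the median of genes of like base mean in eye and 2.55 times in brain, and 99.1% of the 1814 comparable genes in eye had a smaller SE. A call in eye would have needed an absolute log2 fold change of 1.55. For thbs4b, the authors' deposited tables give -0.06 (SE 0.14) in brain and -0.20 (SE 0.26, adjusted p = 0.786 by DESeq2) in eye. Its implied means were 375 in WT and 360 in wh5 brain, and 1791 in WT and 1558 in wh5 eye, with an SE 2.63 times that of comparable genes in eye.

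Markers of skeletal muscle and of tendon and cartilage were read beside the thbs4 genes, since muscle and tendon can adhere to a dissected eye. Of 13 skeletal muscle markers in eye, 8 were estimated higher and 5 lower, none was called, and the median log2 fold change was 0.03. Their estimates ran from -0.42 to 0.78, and 1 had an unadjusted p below 0.05 by the authors' DESeq2 test. Over all genes in eye 14.2% passed that level, and the median was 0.01. The summed implied level of the muscle markers was 90628 in WT and 100826 in wh5, and the lowest base mean in the list was 6.19. Their SE was at the median 2.09 times that of comparable genes, with a highest ratio of 3.66, so no muscle marker reached the ratio of thbs4a. Of 13 tendon and cartilage markers in eye, 12 were estimated lower, none was called and the median was -0.13. Their estimates ran from -0.88 to 0.16, and 3 had an unadjusted p below 0.05 by the same test. Their summed implied level was 7645 in WT and 6920 in wh5 eye. This list mixes tendon with cartilage genes, so the sum does not measure attached tendon alone. The part of muscle, tendon or cartilage in the thbs4 estimates was not tested.

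The thbs3 pair, known from skeletal tissue in mice, had no called member in either organ. In the authors' deposited tables, thbs3a had log2 fold changes of -0.12 (SE 0.21) in brain and -0.19 (SE 0.15) in eye. The implied means of thbs3a were 69.7 in WT and 64.3 in wh5 brain, and 525 in WT and 462 in wh5 eye. In the authors' deposited tables, thbs3b had 0.30 (SE 0.33) in brain and 0.07 (SE 0.21) in eye. Its implied means were 58.9 in WT and 72.4 in wh5 brain, and 157 in WT and 166 in wh5 eye.

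Over the family, the eye comparison called no member. In the authors' deposited DESeq2 table for eye, 0 of the 7 measured members passed an adjusted p of 0.05, where 1.67% of all genes did. In eye none of the 7 had an unadjusted p below 0.05, a level passed by 14.2% of all genes there. None was called in eye with an empirical null. The lowest adjusted p was that of thbs2a. In eye 4 members were estimated lower and 3 higher, with a median log2 fold change of -0.02 against 0.01 over all genes. In brain 4 were lower and 3 higher, with a median of -0.06 against 0.00 over all genes. The called member in brain was thbs2a, where 0.736% of all genes were called, and nothing is read from that count because it chose the family. Each of the 7 members had the same sign in both organs. Several of these estimates lay near 0 and the share of all genes with the same sign was not computed, so nothing is read from this either.

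**Figure D2:**
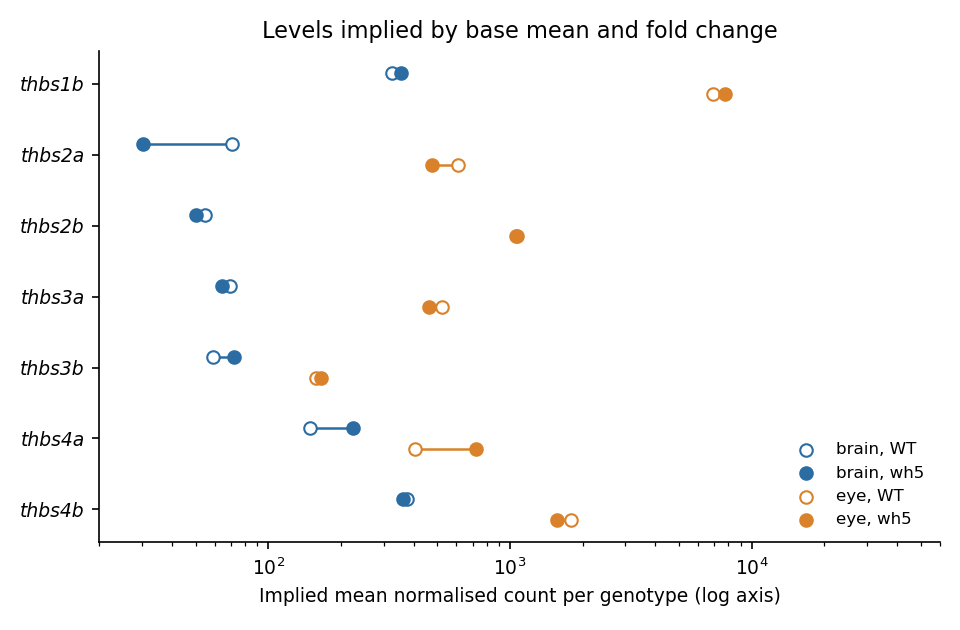
Mean normalised count per genotype implied by the authors' base mean and fold change, for each gene in brain and eye, on a log axis, with a line joining WT (open) and wh5 (filled). The widest brain gap is that of thbs2a, from 70.7 to 30.3, and the widest eye gap on this axis is that of thbs4a, from 406 to 724.

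All 7 measured genes had a higher base mean in the eye table than in the brain table. The tables were normalised separately and give no error for a base mean, so the ratios are descriptions. Over all 18275 genes in both tables the median ratio of eye to brain base mean was 0.960. The trimeric genes had the highest ratios of the family, 21.6 for thbs1b, 20.3 for thbs2b and 10.8 for thbs2a. These 3 ratios exceeded those of at least 94.3% of the genes in both tables. The pentameric genes followed with 7.36 for thbs3a, 4.55 for thbs4b, 3.03 for thbs4a and 2.46 for thbs3b. Thbs2a and thbs2b had like base means in brain, 50.5 and 52.4 in the authors' deposited table, but levels of different genes are not compared further because no transcript lengths were used here.

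Because thbs2a has a higher base mean in eye, and most photoreceptor markers were estimated lower in wh5 brain, levels of both were set side by side. Of 25 photoreceptor markers in brain, 24 were estimated lower in wh5 and 5 (20%) were called by the authors' DESeq2 test, against 0.736% of all genes, but none was called with an empirical null. The list had a median log2 fold change of -2.36 and a summed implied level of 13597.5 in WT and 8001 in wh5. Much of that sum is gnb1b, the 1 marker estimated higher, at 0.15 (SE 0.07) and a base mean of 6116 in the authors' deposited table for brain. Its brain level was 29.0% of its eye level, so the sum understates the lower estimates of the other markers. The lowest base mean among the 25 markers was 11.9. Over the 25 markers the brain level was at the median 0.300% of the eye level, with a range of 0.0632% to 29.0%. The 23 markers under 1%, a set cut on this same share, had a median of 0.298%. Besides gnb1b, the cut left out grk7b, with base means of 28.4 in brain and 444 in eye in the authors' deposited tables. Thbs2a in brain stood at 9.29% of its eye level. The other members stood between 4.64% for thbs1b and 40.7% for thbs3b. These shares use base means averaged over WT and wh5, although most photoreceptor markers were estimated lower in wh5 brain. They refer to whole eye, and a part of the eye richer in thbs2a than in photoreceptors was not tested. Whether eye tissue contributed to the brain samples was not tested either.

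**Figure D3:**
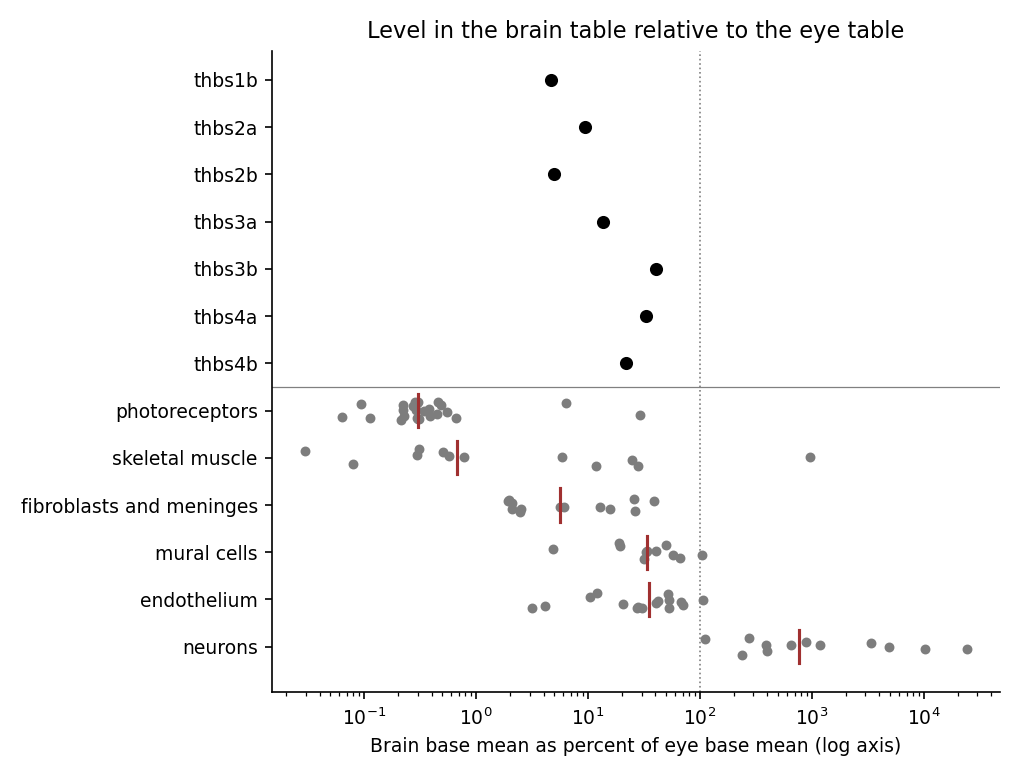
Base mean in the brain table as a percent of the base mean in the eye table, on a log axis, for the 7 thrombospondin genes (black) and for the genes of 6 marker lists (grey, red bar at the median). The thrombospondin genes lie from 4.64% to 40.7%, above the photoreceptor median of 0.30% and the skeletal muscle median of 0.68%, and below the neuron median of 760%. The medians of fibroblast and meningeal (5.61%), mural cell (33.3%) and endothelial markers (35.3%) lie within the thrombospondin range.

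Cell types known to make thrombospondin-2 in mammals were also measured in brain. Of 13 fibroblast and meningeal markers, such as collagen I genes, 8 were estimated lower and 5 higher in wh5, with a median log2 fold change of -0.04 and a summed implied level of 4034 in WT and 3896 in wh5. Of 11 mural cell markers, 4 were lower and 7 higher, with a median of 0.04 and a sum of 6126 in WT and 6491 in wh5. Of 16 endothelial markers, 10 were lower and 6 higher, with a median of -0.08 and a sum of 6341 in WT and 6533 in wh5. Of 12 astroglial markers, 5 were lower and 7 higher, with a median of 0.02 and a sum of 171503 in WT and 166610 in wh5. None of these markers was called in brain by the authors' DESeq2 test. Of the 52 entries in the 4 lists, 5 had an unadjusted p below 0.05 by that test, against 8.62% of all genes in brain. The lowest base mean among the 52 entries was 10.997, so no listed marker was at 0. In eye, where thbs2a was estimated lower without passing the test, 11 of the 13 fibroblast and meningeal markers were estimated lower, with a median log2 fold change of -0.14 and a summed implied level of 62430 in WT and 55845 in wh5. Of the 16 endothelial markers in eye 10 were lower, with a median of -0.10 and a sum of 18533 in WT and 16968 in wh5. Of the 11 mural cell markers in eye 6 were lower, with a median of -0.01, and of the 11 glial markers 6 were lower, with a median of -0.08. An unadjusted p below 0.05 by the authors' DESeq2 test was reached in eye by 1 fibroblast and meningeal marker and 2 endothelial markers. It was also reached by 1 mural cell marker and 2 glial markers. Over all genes in eye 14.2% passed that level and 1.67% were called. The called marker among these in eye was the glutamine synthetase gene glula, at -0.26 (SE 0.07) in the authors' deposited table, and it was not called with an empirical null (adjusted p = 0.510). Lower estimates in eye were not limited to these lists. Neuron markers were lower for 10 of 12 (median -0.12), and tendon and cartilage markers for 12 of 13 (median -0.13). Of the neuron markers 1 was called, nefma, at -0.69 (SE 0.20, DESeq2 adjusted p = 0.0343) in the authors' deposited table for eye. At an unadjusted p below 0.05 by the same test there were 3 of the 12 neuron markers in eye. No neuron marker in eye was called with an empirical null. Photoreceptor and skeletal muscle markers in eye leaned higher, with 19 of 26 and 8 of 13. The part of any of these cell types in the thbs2a values was not tested.

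The position of thbs2a sets it apart within the family, since it is the only measured member on the chromosome that holds cyp1b1. Gene order follows RefSeq on assembly GRCz12tu, and since the authors used another build no coordinate is given. Calls fell on 8.04% of the 709 brain genes and 8.51% of the 717 eye genes of that chromosome, and on 0.454% and 1.42% of the genes of all others. Between thbs2a and cyp1b1 lay 83 genes tested in brain, of which 13 (15.7%) were called, and 86 tested in eye, of which 5 (5.81%) were called. In brain 27 genes of the chromosome were called lower and 30 higher. Of the 27 called lower, 4 had a lower log2 fold change than thbs2a, and the median of the 27 was -0.62.

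Of the 20 tested genes nearest to thbs2a, 10 on each side, 5 (25%) were called in brain, 4 lower and 1 higher. In brain 8.04% of the genes of the chromosome of cyp1b1 and 0.736% of all genes were called. Next to thbs2a lay wdr27, a WD repeat gene, with a log2 fold change of -1.16 (SE 0.26, DESeq2 adjusted p = 0.00328) in the authors' deposited table for brain. The steroid 5-alpha-reductase gene srd5a2b, 3 genes away, had -1.52 (SE 0.29, DESeq2 adjusted p = 0.000119) in the authors' deposited table. On the other side, the acyltransferase gene agpat4, 4 genes away, had -0.72 (SE 0.20, DESeq2 adjusted p = 0.046) and the lipid transporter gene mfsd2aa, 8 genes away, had -0.27 (SE 0.07, DESeq2 adjusted p = 0.0259) in the authors' deposited table for brain. The protease gene tasp1, 10 genes away, rose by 0.23 (SE 0.06, DESeq2 adjusted p = 0.0248) in the authors' deposited table.

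Of the 20 genes, the other 15 were not called. Between srd5a2b and wdr27 lay memo1, at 0.19 (SE 0.10) in the authors' deposited table for brain, and on the far side of thbs2a lay psme4a, a proteasome activator gene, at 0.11 (SE 0.10). Of the 20 neighbours 10 were estimated lower and 10 higher, with a median log2 fold change of -0.01. The median absolute log2 fold change was 0.18, against 0.10 over all genes. Thrombospondin-2 binds Jagged1 and Notch3 in mammals, and the Notch ligand gene jag1b, 5 genes away, had 0.08 (SE 0.12) in the authors' deposited table for brain. Isthmin 1 (ism1), a secreted protein with a type 1 repeat, had 0.10 (SE 0.10) in the authors' deposited table for brain, at 9 genes away.

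Neighbours in eye were counted anew among the genes tested there, so the 20 nearest are not the same set as in brain. For example, tasp1 lay 11 genes away in eye and was not among them. In eye 1 of the 20 nearest (5%) was called, against 8.51% of the eye genes of that chromosome. It was btbd3b, at -0.37 (SE 0.09, DESeq2 adjusted p = 0.00355) in the authors' deposited table. This call was lost with an empirical null (adjusted p = 0.227). There wdr27 had 0.37 (SE 0.19), srd5a2b had -0.78 (SE 0.55), agpat4 had -0.22 (SE 0.22) and mfsd2aa had -0.27 (SE 0.13) in the authors' deposited table for eye. Thus wdr27, adjacent to thbs2a, was estimated higher in eye and lower in brain, while the other 3 were estimated lower in both. Of the 4 neighbours called lower in brain, wdr27 and srd5a2b were also called with an empirical null (adjusted p = 0.022 and 0.00162), and agpat4 and mfsd2aa were not (0.163 and 0.105). Neither was tasp1 (0.096). How neighbouring calls relate to the thbs2a value was not tested.

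**Figure D4:**
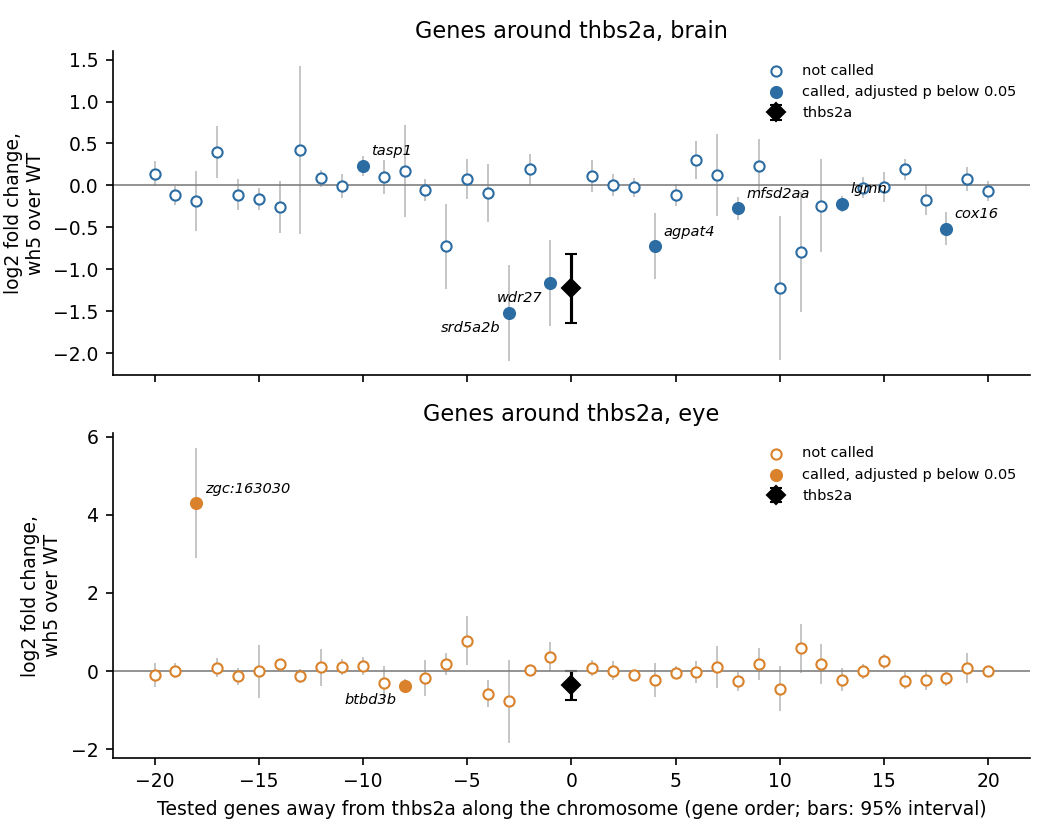
Log2 fold change of wh5 over WT for the 20 tested genes on each side of thbs2a (black diamond), by gene order along the chromosome, in brain (top) and eye (bottom, wider vertical scale), with 95% intervals; filled points were called. In brain wdr27 at -1.16 and srd5a2b at -1.52 lie beside thbs2a at -1.22, with memo1 at 0.19 and psme4a at 0.11 among the uncalled genes between and beside them and the uncalled si:ch211-67f13.7 at -1.22, 10 genes away. In eye the called zgc:163030 lies at 4.29, 18 genes away.

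Among the 10 nearest genes on each side of the other members, 6 were called. Per member and organ this was at most 1 of 20 (5%), apart from 2 of 20 (10%) for thbs2b in eye. On chromosomes other than that of cyp1b1, 0.454% of genes were called in brain and 1.42% in eye. Beside thbs1b, the ryanodine receptor gene ryr3 rose by 0.31 (SE 0.07) in brain and sipa1l1 had -0.41 (SE 0.11) in eye, in the authors' deposited tables. Beside thbs4b, zgc:122979 had -0.67 (SE 0.14) in the authors' deposited table for brain, and beside thbs4a, mamdc2a had -0.36 (SE 0.11) in the authors' deposited table for eye. Beside thbs2b, plekhs1 and zgc:153920 rose by 3.27 (SE 0.91) and 1.13 (SE 0.30) in the authors' deposited table for eye. In eye none of these 4 calls held with an empirical null, with adjusted p from 0.401 for sipa1l1 to 0.609 for mamdc2a, while ryr3 and zgc:122979 in brain kept theirs (0.0158 and 0.0137). No gene among the 20 nearest to either thbs3 gene was called in either organ.

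The genes most like thbs2a over the 2 comparisons were si:ch211-67f13.7, tgm1l4, dscc1, zgc:114046 and rp1, by distance between the pairs of log2 fold changes in brain and eye (0.085 to 0.098 log2 units). Of these, si:ch211-67f13.7 lies on the chromosome of cyp1b1, 10 genes from thbs2a. With only 2 comparisons, and with brain SEs from 0.35 to 0.79 for these 5 genes against 0.21 for thbs2a, likeness of pattern is weakly determined. The transglutaminase gene tgm1l4 was the called gene among them, with -1.30 (SE 0.35) in the authors' deposited table for brain.

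Genes that act with thrombospondins were then examined in 5 lists of 179 genes in all. Receptors and binding partners had medians near 0, and none of the 45 measured in brain or the 46 in eye was called by the authors' DESeq2 test. At an unadjusted p below 0.05 there were 5 of 45 in brain and 8 of 46 in eye, against 8.62% and 14.2% of all genes. None of the list was called with an empirical null. The median log2 fold change was 0.00 in brain and -0.07 in eye. The most expressed were, in brain, the endocytic receptor gene lrp1aa at -0.09 (SE 0.07) and the calreticulin gene calr at -0.04 (SE 0.08), and in eye lrp1aa at -0.10 (SE 0.13) and the integrin gene itga6b at -0.25 (SE 0.23), all from the authors' deposited tables. The classical receptor gene cd36 had -0.04 (SE 0.07) in brain and -0.11 (SE 0.13) in eye, and cacna2d1a, for the calcium channel subunit through which thrombospondins act at synapses, had 0.06 (SE 0.16) and -0.04 (SE 0.11), in the authors' deposited tables. Both were picked for their known role, after their values were seen.

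Genes of latent TGF-beta activation and signalling had no call among 21 in either organ by the authors' DESeq2 test. At an unadjusted p below 0.05 by that test there were 4 of 21 in each organ, against 8.62% of all genes in brain and 14.2% in eye. None of the list was called with an empirical null. The list's median was 0.04 in brain and -0.08 in eye. The most expressed were the signal transducer genes smad2 at 0.04 (SE 0.06) and smad3a at -0.03 (SE 0.06) in brain, and the ligand gene tgfb3 at 0.06 (SE 0.08) and smad3b at -0.18 (SE 0.13) in eye, all from the authors' deposited tables.

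Matrix and protease partners held all of the calls. The lists were chosen with earlier results of these data known, so nothing is read from the shares called. In brain 1 of 41 was called (2.44%), against 0.736% of all genes. It was the lysyl oxidase-like gene loxl3b, whose product cross-links collagen, at -2.15 (SE 0.35, DESeq2 adjusted p = 1.36e-06) in the authors' deposited table. It lies on the chromosome of cyp1b1, as thbs2a does. In eye 2 of 41 were called (4.88%), against 1.67% of all genes. They were loxl3b at -0.91 (SE 0.20, DESeq2 adjusted p = 0.00116) and the metalloproteinase inhibitor gene timp4.2, which rose by 1.45 (SE 0.34, DESeq2 adjusted p = 0.00397), in the authors' deposited table. With an empirical null both eye calls were lost (adjusted p = 0.128 and 0.287). Timp4.2 is a tandem copy, and its counts may share reads with its neighbour copy. The matrilin gene matn4 had 1.43 (SE 0.41, DESeq2 adjusted p = 0.0629) in the authors' deposited table for brain, and is named after its value was seen. At an unadjusted p below 0.05 by the authors' DESeq2 test there were 6 of 41 in brain and 10 of 41 in eye. Over all genes that level was passed by 8.62% in brain and 14.2% in eye. The list's median was 0.05 in brain and -0.12 in eye.

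Other proteins with type 1 repeats had no call among 43 genes in brain or 45 in eye by the authors' DESeq2 test. At an unadjusted p below 0.05 by that test there were 1 in brain and 7 in eye, against 8.62% and 14.2% of all genes. None of the list was called with an empirical null. The most expressed were the adhesion receptor genes adgrb1b at -0.09 (SE 0.18) and adgrb3 at -0.04 (SE 0.04) in brain, and the spondin gene spon1b at -0.06 (SE 0.17) and adgrb3 at 0.03 (SE 0.08) in eye, all from the authors' deposited tables. The list's median was 0.07 in brain and -0.08 in eye.

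Angiogenic signalling genes had no call among 28 in either organ by the authors' DESeq2 test. At an unadjusted p below 0.05 by that test there were 3 in each organ, against 8.62% of all genes in brain and 14.2% in eye. None of the list was called with an empirical null. The most expressed were hif1ab at -0.06 (SE 0.06) and nrp1a at 0.08 (SE 0.08) in brain, and hif1ab at -0.23 (SE 0.12) and the vascular endothelial growth factor receptor gene kdrl at -0.08 (SE 0.11) in eye, all from the authors' deposited tables. The list's median was 0.03 in brain and -0.04 in eye.

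Over all 5 lists, 1 of 176 genes (0.568%) was called in brain, against 0.736% of all genes, and 2 of 179 (1.12%) in eye, against 1.67%. The median log2 fold change over the lists was 0.04 in brain and -0.08 in eye, against 0.00 and 0.01 over all genes. No pathway gene had a called difference between its brain and eye fold change among the 176 compared (two-sided normal test of the difference, adjusted over 18275 genes), where 15 genes, or 0.0821%, were called in all.

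**Figure D5:**
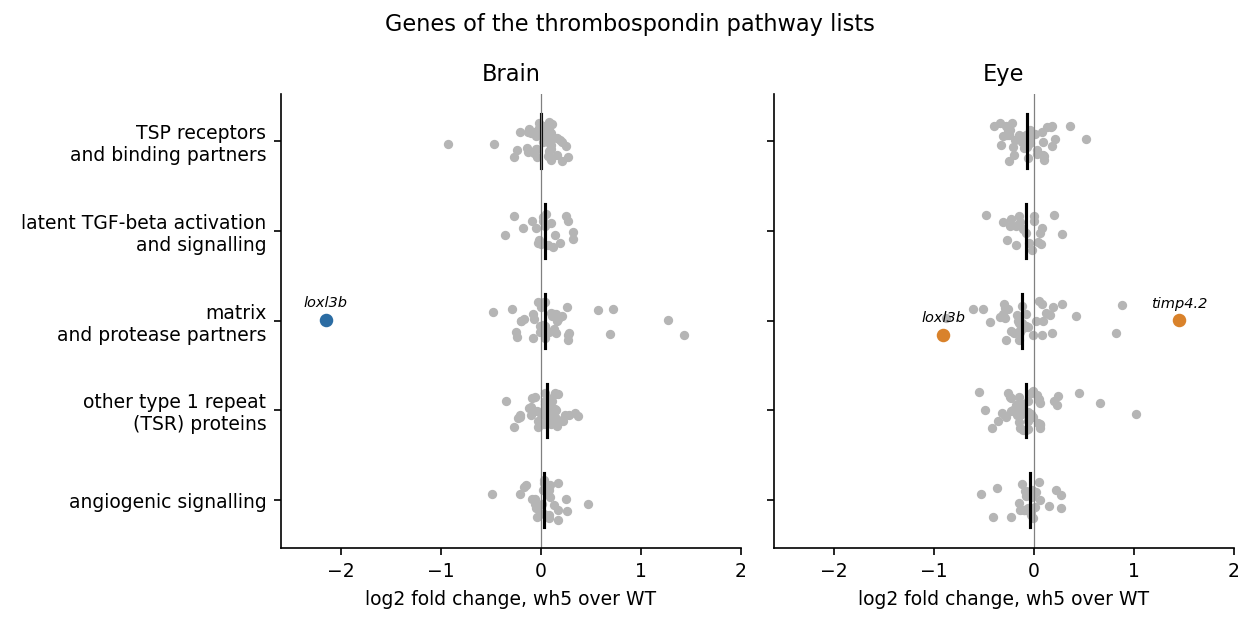
Log2 fold change of wh5 over WT for each gene of the 5 pathway lists in brain and eye (grey), with called genes coloured and named and a black bar at each list's median. The called genes are loxl3b, at -2.15 in brain and -0.91 in eye, and timp4.2 at 1.45 in eye, and the list medians lie between -0.12 and 0.07.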

How the data were processed

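The authors' deposited tables compare wh5 with WT, 1 per organ. Build GRCz11 and the tools DESeq2 1.32.0, STAR and fastp come from the submitters' processing notes; settings, filters and the model formula are not stated in the sources used here. Per the file headers, the authors deposited a log2 fold change with its SE, a base mean (a signal, the mean normalised count), a test statistic (a score), and p-values before and after adjustment. The logarithm is taken to be base 2, as in the output of DESeq2, the authors' tool. The deposited adjusted p equals the Benjamini-Hochberg value over all listed genes to a relative 0.00453 in brain and 0.00451 in eye. No count model was refitted, since the tables hold no values per sample, and depth is unknown.

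A gene was called at a deposited adjusted p below 0.05. Intervals are the fold change with a normal 95% range of the SE. Implied group means split the base mean by the fold, assuming 10 samples per genotype. The empirical null divides the centred test statistic by its robust SD, 1.10 in brain and 1.32 in eye. Differences between organs treat the organs as independent samples. The adjustment, the empirical null and the organ difference were tested on simulated tables with known changes. The simulated noise was drawn from the deposited SE alone and independently per organ, so it lacked the wider spread of the real statistics. How these computations behave under that spread was not tested. Gene order came from RefSeq (96.1% of brain genes and 96.4% of eye genes placed). Of the names in the lists, 29 were not matched in brain and 25 in eye.

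Members, lists and tests were chosen with earlier results of these data known. Named genes are all members, the called or otherwise the 2 most expressed genes of each list, the 10 genes on each side of thbs2a, called genes among the 10 on each side of the other members, and the 5 genes nearest to thbs2a in fold change; exceptions are marked. The design had set lengths beside levels and, for counts, a refit; neither could be done. Computations used Python 3.11.15 with scipy 1.17.1, numpy 2.4.6, pandas 2.3.3 and, for plots, matplotlib 3.10.9.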

Additional observations from a re-analysis of the deposited data

How the results depend on the processing

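No paired analysis was possible because the deposited tables hold no values of single samples, and for the same reason no replicate was left out. Levels per length were not run. In eye no thrombospondin gene was called under any of the 6 alternatives (thbs2a had no value without the chromosome of cyp1b1), and the adjusted p of thbs2a ranged from 0.350 to 0.946. With none called at 0.05, the stricter threshold and the fold requirement could not add a call. Neither could the threshold of 0.1, since the lowest DESeq2 adjusted p was 0.363. Nothing is read from those outcomes. The calls among neighbours of thbs2a were 17.5% in brain and 5% in eye with 20 genes on each side.

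Pathway calls in brain were 2 at an adjusted p below 0.1 and 0 without the chromosome of cyp1b1, since loxl3b lies on it. In eye they were 6 at 0.1, and 1 without that chromosome, 0 with an empirical null and 1 when a log2 change of 1 or more in either direction was required. Among all genes, calls in brain were 75 at 0.01, 65 without that chromosome, 77 with an empirical null and 45 with the fold requirement. Without that chromosome, p-values were adjusted anew over the remaining 18591 brain genes, so some calls on other chromosomes were lost too. In eye the calls among all genes were 122 at 0.01, 642 at 0.1, 38 with an empirical null and 95 with the fold requirement (80 higher, 15 lower). The thresholds and the fold requirement change the counts by construction; for the empirical null the cause was not tested.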
